A study of Homo sapiens with 4 samples.

Results

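Peaks of RNA immunoprecipitated with HuR were examined on the genes of ubiquitin-conjugating enzymes and ubiquitin ligases. Members were all peaks whose host gene, the gene of the RefSeq transcript named in the deposited annotation, had a symbol starting with UBE2, UBE3, UBE4, CUL and a digit, FBX, or RNF and a digit. This gave 253 of the 14149 peaks in the list, on 58 of the 3312 genes with a peak. Of the 58 genes, 56 were protein-coding and 2, UBE2E2-DT and FBXW7-AS1, were long non-coding RNAs.

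The RNA came from MDA-MB-231, a triple-negative human breast cancer line, and was sequenced after immunoprecipitation (RIP-seq). A mouse antibody against HuR was used for 2 HuR RIP samples and mouse IgG for 2 control samples, which the study's methods describe as biological replicates. The labels name no genotype or drug for either group, so all 4 samples are of 1 parental line. The deposited list holds 1 score per peak for the whole series, without a value for any HuR or IgG sample. How far a peak of HuR RIP exceeded IgG RIP, and by how much replicates varied, could not be computed, and the depth of each library is unknown. Marker genes were also looked up, against a background of 15.4% of all protein-coding genes with a peak. A peak was listed for 2 of 5 genes characteristic of mesenchymal-type breast cancer cells (CD44, highest peak score 769.6, and AXL, 2768.7) and for 0 of 7 luminal and epithelial genes. A peak does not measure expression and a gene without one is not shown to be unexpressed, so the list does not check the labelled cell line.

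Ubiquitin is attached to proteins in a cascade. An activating enzyme (E1) loads ubiquitin and passes it to a conjugating enzyme (E2, the UBE2 genes), and a ligase (E3) brings the E2 and the substrate together. HECT ligases such as UBE3A take ubiquitin onto themselves first, U-box ligases such as UBE4B and RING ligases such as many RNF proteins pass it directly from the E2, and cullins (CUL) are scaffolds that join a RING protein to exchangeable substrate receptors. F-box proteins are the receptors of CUL1 complexes, with FBXW members carrying WD40 repeats, FBXL members leucine-rich repeats and FBXO members other domains. HuR, the product of ELAVL1, is an RNA-binding protein known for binding AU-rich and U-rich sequences, often in 3′-UTRs, and for stabilizing the mRNAs it binds.

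The sequences below are shown because AU-rich and U-rich stretches are the kind of sequence HuR is known to bind. Each is the 30-base stretch richest in the pentamer ATTTA, and then in A and T, within the highest-scoring 3′-UTR peak of a gene. Genes are given in the order of that peak's score, and not every gene of that order is shown. In that order, 5 genes whose highest 3′-UTR peak held no ATTTA were passed over. Among them were UBE2N, with the highest 3′-UTR score of all members (2098.7), and FBXW11 (170.1). They are printed 5′ to 3′ on the strand of the gene as DNA letters of hg38, with ATTTA in capitals. RNF149, which carries a RING domain, entered only through this order, after its values were seen.
UBE2D3, chr4:102797464-102797493, − strand: tttaacttttaaaaataacatctttATTTA
RNF11, chr1:51271538-51271567, + strand: caatgtttaaaaatataattgtATTTAgat
UBE2E2, chr3:23590441-23590470, + strand: attgaacaaaataatatgtattttgATTTA
RNF2, chr1:185100438-185100467, + strand: tattcaaatcttttcccctttATTTAagat
UBE2D1, chr10:58369191-58369220, + strand: ttactgtatagactaaatatattctATTTA
CUL5, chr11:108106148-108106177, + strand: gtatatttggaATTTAgaagaaataatttt
RNF149, chr2:101277021-101277050, − strand: atatATTTAtctactaaaatagagtgttta
The stretches shown held between 23 (RNF2) and 27 (UBE2D3) A or T bases out of 30, and each of those shown held 1 copy of ATTTA. The choice of genes required at least 1 copy, so its presence here is not a result. The whole peak of UBE2D1 held 3 copies, that of CUL5 2 copies and those of the others 1.

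Of the 198 protein-coding genes of these families in RefSeq, 56 had a peak, which is 28.3% (Wilson 95% interval 22.5 to 34.9%). The background over all 20052 protein-coding genes was 15.4%, and over those outside the families 15.2%. A peak annotated in a 3′-UTR was present in 26 members (13.1%, 9.12 to 18.5%), against a background of 6.09%. A peak at or above the median score of the list was present in 25 members (12.6%, 8.70 to 18.0%), against 7.78%. These intervals cover counting error only. No test was made, since the genes are not replicates.

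Transcript length moved with being listed. In the lowest quartile of all coding genes by spliced length, 2.86% of members and 2.55% of all genes were listed. In the second quartile the shares were 20.4% and 9.58%, in the third 38.2% and 20.4%, and in the highest 42.1% and 31.5%. The part of transcript length or of expression level in the family share beyond these values was not tested.

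The families differed in how many of their genes were listed. Cullins had 6 of 8 genes (75.0%, 40.9 to 92.9%) and UBE3 3 of 4. UBE2 had 12 of 36 (33.3%, 20.2 to 49.7%), FBXW 3 of 10 and FBXO 10 of 36 (27.8%). RNF had 18 of 85 (21.2%, 13.8 to 31.0%), FBXL 3 of 17 (17.6%) and UBE4 1 of 2. The intervals of the small families are wide and overlap each other, and only those of UBE2, UBE3, CUL and FBXO lay wholly above the background.

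**Figure D1:**
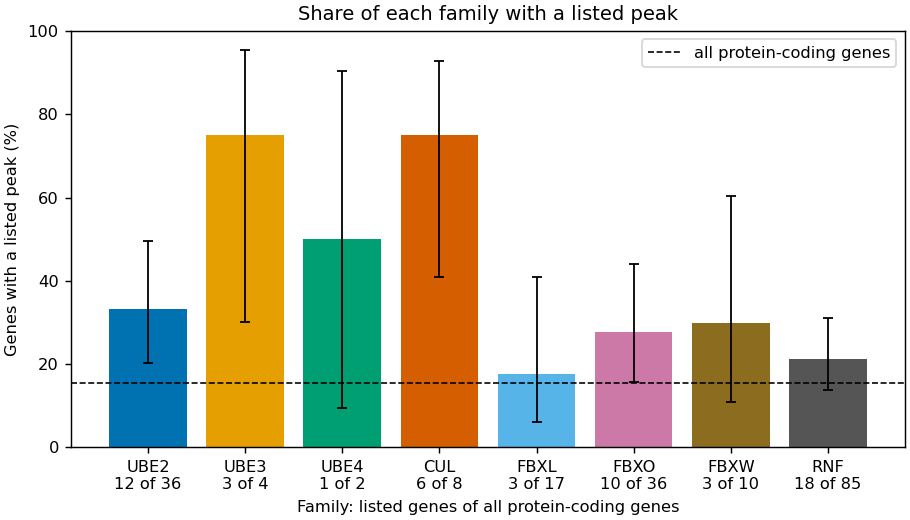
Share of the protein-coding genes of each family with a listed peak, in percent, with Wilson 95% intervals as error bars and the share over all protein-coding genes (15.4%) as a dashed line. The bars run from 17.6% for FBXL to 75.0% for UBE3 and CUL, and the intervals of UBE2, UBE3, CUL and FBXO lie above the line.

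Every gene was described by the score of its highest peak. The score is HOMER's own value for a peak and not an enrichment over IgG. The 467 scores under 10, which are given to 2 decimals, took only 7 distinct values spaced by 0.24 to 0.25, and the best common step of the low scores was 0.245. The 95% Poisson intervals given here treat 1 such step as 1 sequenced tag, which the authors do not state. The median of the 58 best scores was 32.3 (order-statistic 95% interval 29.1 to 49.9), against 34.0 over all listed genes, which lies inside that interval. Of the 58 members, 4 were among the 331 highest-ranking genes of the list, 15 were in its top quartile and 26 were above its median rank.

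The number of peaks ranged more widely than the median tells. Members had a median of 2.5 peaks against 2 over all listed genes. Of the 58, 16 had 1 peak and 19 had 5 or more. UBE2N alone held 38.1% of the summed score of all member peaks. Across the 56 coding members, Spearman's rho between the number of peaks and the best score was 0.64, and between the number of peaks and the number of exons 0.19. Both are descriptions, and the points share libraries and depth.

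**Figure D2:**
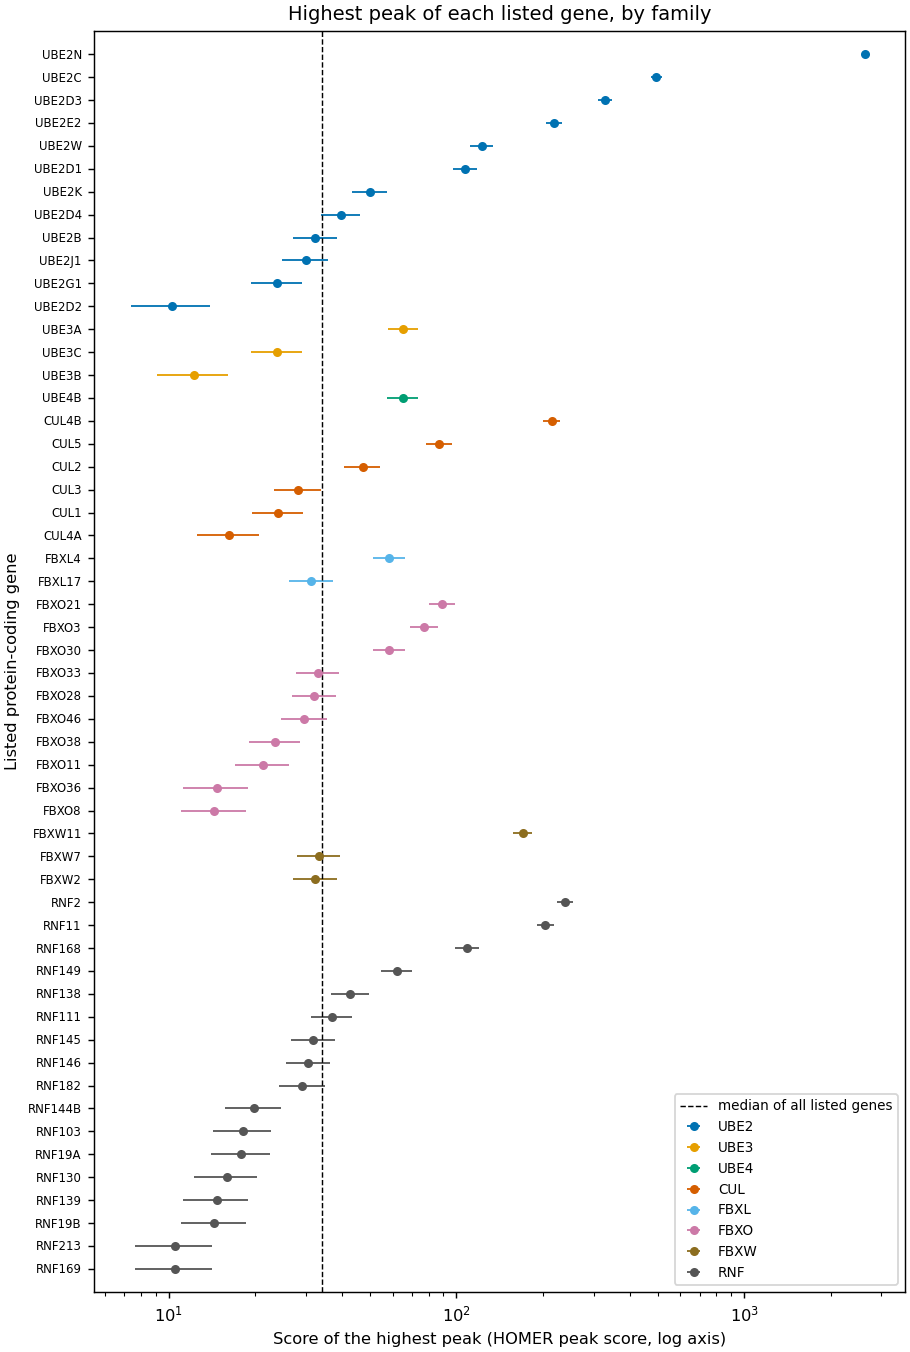
Score of the highest peak of 54 listed protein-coding genes on a log axis, grouped and coloured by family. Error bars are exact Poisson 95% intervals on the score steps, and the dashed line is the median over all listed genes (34.0). Of the 56 listed protein-coding members, 2 are not reported here and not drawn. UBE2N stands far to the right at 2638.5, and UBE2D2 lies lowest at 10.3.

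Among the conjugating enzymes, UBE2N had the highest score of any member and ranked 5 of all 3312 listed genes. UBE2N (Ubc13) forms non-degradative ubiquitin chains together with the UBE2V proteins. The gene lies on chr12:93405684-93441947, − strand, and its 6 peaks scored 2098.7, 2638.5, 2077.4, 1460.5, 1138.2 and 58.7 in order along the chromosome. The highest, 2638.5 (95% Poisson interval 2589 to 2689), lay at the last of its 4 exons, as did the peak of 2098.7. Exon numbers here and below are those of the canonical transcript, with each peak placed on the exon it overlapped most after a move of 173 bp against its own strand. The 5 highest peaks fell on exons 1, 2 and 4, and the weak peak of 58.7 lay at the promoter on the strand opposite to the gene.

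UBE2C, which works with the anaphase-promoting complex in mitosis, ranked next among the members (133 of all genes). Its 5 peaks scored 323.5, 350.2, 421.2, 495.5 and 183.0 from the 5′ to the 3′ end, on exons 1, 4 and 6 of 6. The highest and the lowest of them lay on the same last exon. The 3′-UTR of its canonical transcript was 185 bases long, the shortest among the listed members, and held 0 copies of ATTTA.

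The UBE2D genes encode closely related, promiscuous E2 enzymes that serve many RING and HECT ligases. UBE2D3 had 5 peaks, with scores of 203.8, 171.1 and 328.9 in the 3′-UTR and 139.7 and 129.5 at the annotated promoter. UBE2D1 had 8 peaks between 17.9 and 107.2, with the highest at the last exon. UBE2D4 had 1 peak of 39.6 in its 3′-UTR, and UBE2D2 had 1 peak of 10.3 in an intron, 933 bp from the nearest exon. The order of the best scores was UBE2D3, UBE2D1, UBE2D4 and UBE2D2, and the Poisson intervals of neighbours in this order did not overlap.

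Coding sequences of the UBE2D genes, each 444 bases long, were compared because reads may match several of them. UBE2D2 and UBE2D3 were 86.5% identical and the other pairs 77.0 to 78.6%. Of 81 pseudogenes of the families in GENCODE, 1 was overlapped by listed peaks, and it was the UBE2D3 copy UBE2D3P1, with 2 peaks of 28.9 and 15.2. How the authors assigned reads with several matches is not stated, and whether reads match more than 1 of these genes was not tested, so scores over their coding exons are uncertain.

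UBE2E2, another E2, had 9 peaks between 45.3 and 218.5. The peaks of its 3′-UTR side, 203.8 and 193.8 on exon 6, were close to the highest, 218.5 on exon 2. A peak of 97.2 assigned to its divergent transcript UBE2E2-DT overlapped an exon of UBE2E2 itself, so its gene is uncertain. UBE2W, an E2 that can modify the amino terminus of substrates, had 9 peaks between 18.8 and 122.4. Of these, 5 overlapped an annotated exon of a protein-coding readthrough model, so their gene is uncertain. The remaining listed E2 genes, UBE2K, UBE2B, UBE2J1 and UBE2G1, had best scores of 23.7 to 49.9. They were named after their values were seen.

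Several well-known E2 genes had no peak under the rule. These were UBE2V2, UBE2S, UBE2M and UBE2F (the NEDD8 E2 enzymes), UBE2R2 and UBE2V1. For UBE2V1, the partner of UBE2N, 2 peaks of 25.0 and 11.3 were assigned to the readthrough transcript PEDS1-UBE2V1 and 5 to PEDS1, although the gene column of the list named UBE2V1 for all 7. They were not counted as members.

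The HECT ligases named UBE3 had 2 peaks each, with best scores from 12.2 to 65.3. UBE3A, the ligase lost in Angelman syndrome, had a pair of peaks of 65.3 and 51.1, on exons 8 and 9 of 13. UBE3C had 23.7 and 21.5, and UBE3B had 12.2 and 8.81. UBE4B, a U-box ligase that extends ubiquitin chains, had 9 peaks between 15.9 and 65.1, and the highest lay at the last of its 28 exons. UBE4A was not listed.

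Cullins were listed for 6 of 8 genes. CUL4B, the scaffold of DDB1-bound ligases, led with 13 peaks between 68.0 and 214.6. Its highest peaks were on the last exon, at 214.6, 195.3 and 161.5, and the peaks on the first coding exon reached 140.7 and 133.4. Its close relative CUL4A had 4 peaks between 14.7 and 16.2. The best score of CUL4B (200.6 to 229.3) and that of CUL4A (12.49 to 20.55) had Poisson intervals far apart.

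CUL5, the scaffold of SOCS-box ligases, had 14 peaks between 13.2 and 86.9 on 11 of 19 exons, with 72.9 and 76.6 in the 3′-UTR. CUL2, the scaffold of the VHL ligase, had 1 peak of 47.2. CUL3, which works with BTB-domain receptors, had 4 peaks up to 28.1, and CUL1, the scaffold of the F-box ligases, had 1 peak of 24.0 in an intron, 978 bp from the nearest exon. The intervals of CUL3 (23.23 to 33.78) and CUL1 (19.47 to 29.22) overlapped. CUL7 and CUL9 were not listed. Their 3′-UTRs measured 71 and 142 bases, whereas those of the 6 listed cullins ran from 528 to 4095.

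F-box genes were led by FBXW11 (β-TrCP2), a receptor for phosphorylated substrates such as β-catenin. It had 20 peaks, the most of any member, on 12 of 14 exons, with scores from 16.2 to 170.1. The highest lay in the 3′-UTR, and those on exons 4 and 9 reached 146.8 and 147.8. FBXW7, the receptor for cyclin E and MYC, had 6 peaks between 10.8 and 33.3, of which 3 were in its 3′-UTR. A further peak of 17.4 was assigned to its antisense transcript FBXW7-AS1, and reads of the gene and its antisense partner cannot be told apart without strand. FBXW2 had 1 peak of 32.3 at its promoter, which also overlapped an exon of the protein-coding gene B3GALT9.

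Of the FBXO genes, FBXO21 had 13 peaks between 17.6 and 89.3 and was highest in its 3′-UTR, while its other peaks did not exceed 41.1. FBXO3 had 7 peaks between 24.0 and 77.3, and 2 of them, 68.0 and 57.8, lay 2260 and 2080 bp from the nearest canonical exon. FBXO30 had 3 peaks of 57.0, 58.5 and 56.3, all in the 3′-UTR and within each other's intervals. FBXO11 had 3 peaks from 18.4 to 21.3, and the other 6 listed FBXO genes had best scores of 14.4 to 33.0. FBXL4 had 5 peaks up to 58.5 and FBXL17 7 peaks up to 31.3. FBXO5, FBXO32 (atrogin-1), FBXL5 and FBXL12 were not listed.

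RNF2 (RING1B), which ubiquitylates histone H2A in Polycomb complexes, led the RNF genes. Its 10 peaks lay on exons 1, 3, 4, 5 and 7 of 7 and scored from 69.3 to 238.8. The highest was on exon 5, and the 3 peaks of the last exon scored 147.6, 130.7 and 108.4. RNF11 had 3 peaks, of 123.3 on exon 1 and 203.4 and 124.1 on the last exon. RNF168, which acts on histones at DNA breaks, had 4 peaks of 77.6, 109.1, 35.5 and 16.6.

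RNF111 (Arkadia), a ligase of TGF-β signalling, had 4 peaks from 8.81 to 37.0, and RNF213 had 1 peak of 10.5 in a transcript of 68 exons. Of the remaining RNF genes, 12 had best scores from 10.5 to 61.9. RNF4, RNF7, RNF8, RNF20, RNF31, RNF40 and RNF43 were not listed.

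**Figure D3:**
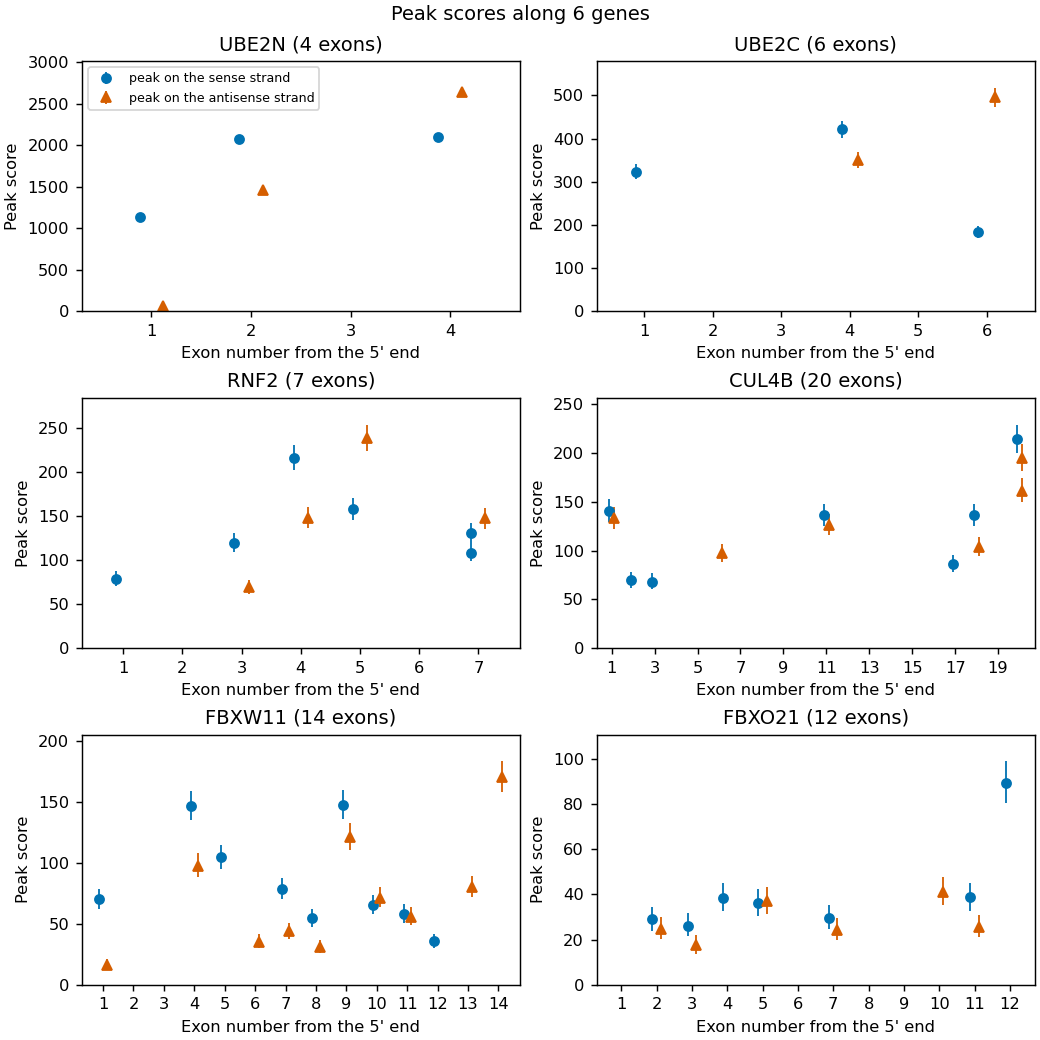
Peak score (linear axes from 0, with exact Poisson 95% intervals) against exon number for UBE2N, UBE2C, RNF2, CUL4B, FBXW11 and FBXO21, with each peak placed on the exon it overlapped most after a move of 173 bp against its strand. Circles are peaks on the strand of the gene and triangles peaks on the opposite strand. Both the first and the last exon had a peak in UBE2N, UBE2C, RNF2, CUL4B and FBXW11, but not every exon between them did. In FBXO21 the last exon stood above the others.

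In the deposited annotation, which uses the peak centre, 62.8% of the member peaks were in introns, 18.6% in 3′-UTRs and 12.6% in exons. The shares over the whole list were 61.9%, 14.6% and 12.6%, and the interval of the member 3′-UTR share (14.3 to 23.8%) included that of the list. Median scores of member peaks were 35.0 in introns, 61.9 in 3′-UTRs and 37.4 in exons, against 28.6, 65.4 and 44 in the list.

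The intronic peaks lay beside exons. In canonical GENCODE transcripts, 164 member peaks (64.8%, against 64.4% in the list) had an intronic centre. Their median distance to the nearest exon was 105 bp, and 158 (96.3%) lay within 1 peak length, 347 bp. These distances were not computed for the whole list. The 6 others were 1 peak each of FBXW11, CUL1, RNF130 and UBE2D2 and the pair of FBXO3, among which RNF130 was named after its value (10.3) was seen. When each peak was moved by 173 bp, from its centre to its edge, against its own strand, 53.8% of the member peaks fell in coding exons, 21.7% in 3′-UTRs and 18.6% in introns. The list gave similar shares after the same move, 53.2%, 18.7% and 20.2%. The moved window overlapped an exon in 245 of 253 peaks (96.8%), against 95% in the list.

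**Figure D4:**
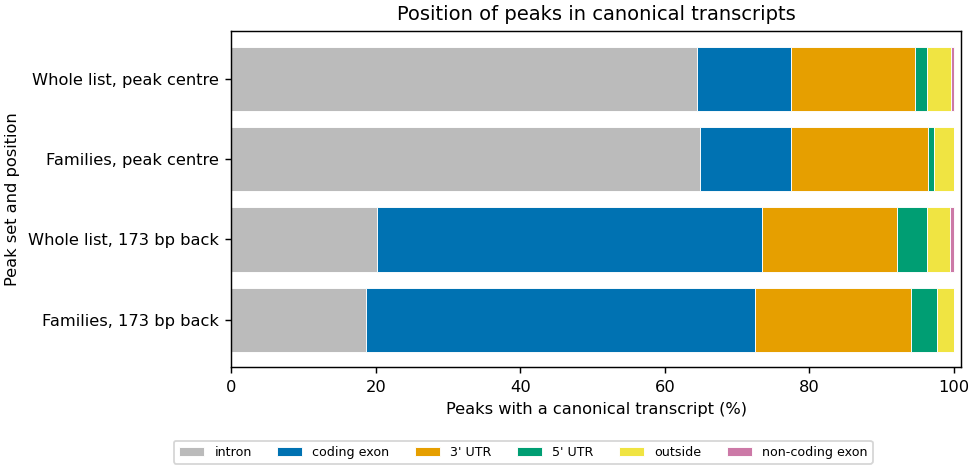
Share of peaks, in percent, in each part of the canonical transcript, for the member families and the whole list, at the peak centre and 173 bp back. For the members, introns made up 64.8% at the centre and 18.6% after the move, and coding exons 12.6% and 53.8%. For the whole list, introns made up 64.4% and 20.2%, and coding exons 13.1% and 53.2%.

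Some peaks came in opposite-strand pairs on the same exon. A pair was an exon with exactly 1 peak on each strand, the + centre at the higher coordinate and within a set distance. There were 48 such pairs in 20 member genes, beside 168 member exons with a peak. In the list there were 2470 pairs, beside 9373 exons of listed coding genes with a peak. The median offset, which that set distance bounds, was 343.5 bp in members and 341 bp in the list. In 33 of the 48 member pairs the scores were within a factor of 1.5. The library kit named in the labels does not mark the strand of RNA, so the strand of a peak is that of the aligned tags. In the list, the focus ratio is a fraction describing how the tags of a peak are placed around its centre. The focus ratio of the + peak was within 0.05 of the + peak's share of the summed scores in 44 of 48 pairs (91.7%), and in 2075 of 2470 pairs of the list (84.0%). Both values describe tags around the same exon, so their agreement is not an independent result.

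The strand of peaks was also compared along transcripts. Of the member peaks on a first exon, 15 of 19 (78.9%, 56.7 to 91.5%) were on the strand of the gene, compared with 54.8% (47.0 to 62.4%) on internal exons and 47.8% (36.5 to 59.4%) on last exons. These intervals overlap, and the difference was not tested. In the list these shares were 67.7%, 53.3% and 49.6%. The most unequal pair was that of UBE2N exon 1, with 1138.2 on the gene strand and 58.7 on the other. Of the 56 coding members, 33 (58.9%) had a peak on the last exon and 15 (26.8%) on the first. The same shares over all listed coding genes were not computed and exon length was not considered, so this contrast is not a trait of the members. Of the 630 exons of these members, 167 (26.5%) had a peak, against 21.7% of the exons of all listed coding genes.

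**Figure D5:**
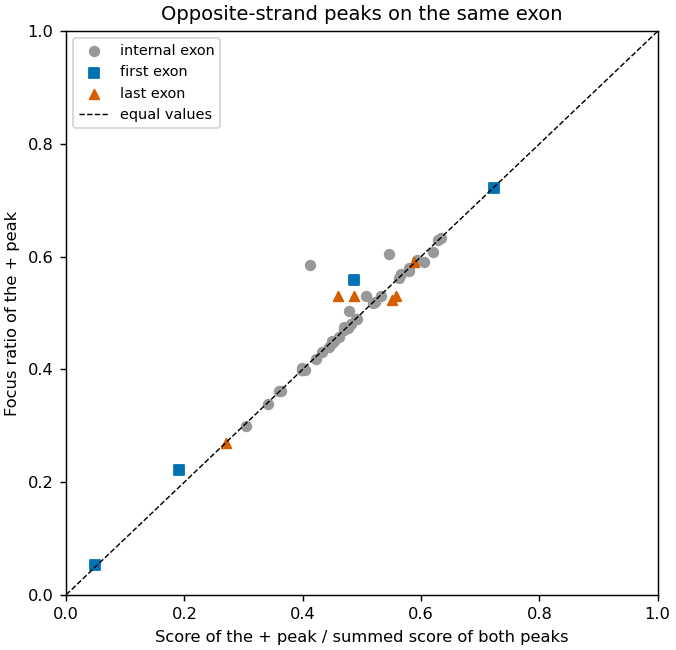
Focus ratio of the + strand peak against its share of the summed score of both peaks, for the 48 opposite-strand pairs on the same exon of a member gene, by exon position. The points follow the dashed line of equal values, from a share of 0.049 (UBE2N exon 1) to 0.724 (UBE2D1 exon 1). Both axes describe tags around the same exon and are not independent.

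Scores in 3′-UTRs and coding exons were compared within genes. With peaks placed at their centre, 14 members had both kinds, and the median difference was 0.20 log2 units (SD 0.83) towards the 3′-UTR, with 9 genes higher there and 5 lower. The median over 587 genes of the list was 0.13. With peaks moved 173 bp back, 20 members gave a median of 0.69 (SD 0.72), with 15 higher and 5 lower, and 1002 genes of the list gave 0.85. Among the moved peaks the largest differences were in UBE2W (1.73), CUL5 (1.70), FBXO21 (1.59) and UBE4B (1.49). RNF11 had the reverse, -0.71, and UBE2C and RNF2 were near 0 at -0.05 and -0.23. The reverse in RNF11 depended on placement, since its difference at the peak centres was 0.41. Its peak of 203.4 lay in the 3′-UTR at its centre and in a coding exon after the move.

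The 3′-UTRs of the listed members differed in length and composition from those of the unlisted members. The median length was 2319.5 bases in listed and 1237 in unlisted members, and the median GC content was 34.9% and 44.9%. ATTTA occurred at 3.17 copies per kb of listed and 2.13 per kb of unlisted 3′-UTR. The same contrast was present over all coding genes, with 2498 and 839 bases, 36.6% and 44.3% GC, and 2.80 and 2.07 copies per kb.

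ATTTA on the gene strand was present in 31 of the 47 member 3′-UTR peaks (66.0%, 51.7 to 77.8%), against 52.7% of all 3′-UTR peaks in the list. This was close to the 62.6% of windows of peak length along the 3′-UTRs of all listed coding members. Of these members, 30 had no 3′-UTR peak, so peaks were not compared with the 3′-UTRs of their own genes alone. Windows of peak length held ATTTA in 42.9% of cases in unlisted members and 46.9% in all coding genes. The heptamer TATTTAT was present in 8.51% of member peaks and 8.24% of all 3′-UTR peaks, and a run of 5 T in 78.7% and 78.5%. ATTTA is contained in TATTTAT, so these counts overlap. After the move by 173 bp, ATTTA was present in 48.9% of the same 47 peaks, and of the 7 AU-rich stretches printed above only those of RNF2 and CUL5 remained inside the moved window. A match describes the letters of the window and is not a binding site.

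The gene column of the list, which names the gene with the nearest start site, differed from the host gene for 92 of the 253 member peaks (36.4%) and for 29 of the 47 in 3′-UTRs (61.7%). In the list these shares were 43.3% and 60.5%. The 2 last-exon peaks of UBE2N, including the highest of all members, stood under NUDT4. For FBXW11, 13 of 20 peaks stood under SMIM23, for CUL5 10 of 14 under ACAT1, for UBE4B 7 of 9 under KIF1B, and for UBE2D1 6 of 8 under TFAM. All 3 of the UBE2D3 3′-UTR peaks stood under LOC102723704.

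Conversely, 61 peaks carried a family name in that column without lying on a member gene. These included 11 peaks on CEP44 under the name FBXO8, 7 on USP3 under FBXL22 and 6 on RRAGD under UBE2J1. A further 9 stood under RNF219, the former name of OBI1. Counted by the gene column, 65 family names and 232 peaks would be found.

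Other genes of the pathway were looked up from a list of 100 genes, of which 43 had a peak (43.0%, 33.7 to 52.8%, against the background of 15.4%). Of 17 E1 and ubiquitin or ubiquitin-like genes, 3 were listed, among them UBA6, an E1 (best score 226.4). Of 29 cullin partners and regulators, 9 were listed, led by the F-box protein SKP2 (201.6) and the neddylation factor DCUN1D1 (150.7), while the core subunits SKP1, RBX1 and DDB1 had no peak.

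Of 25 further HECT ligases, 14 were listed, with best scores of 9.54 to 83.0 and ITCH the highest. Of 29 RING and RBR ligases with other names, 17 were listed. MARCHF6, a ligase of the endoplasmic reticulum, reached a best score of 158.1 and MDM2, the ligase of p53, 157.1. UBE2N therefore stood above every listed gene of these 4 lists as well as above the other members.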

How the data were processed

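RIP-seq libraries of MDA-MB-231 cells, 2 with a HuR antibody and 2 with mouse IgG, were grouped by the titles in the labels. According to the labels and methods, the authors aligned reads to hg38 with STAR and called peaks with HOMER, and the list is a selection from these peaks by a criterion of changed abundance. Versions, thresholds, the treatment of reads with several matches and any pooling of replicates are not given in the sources used here. Because peaks passed that selection, genes not listed may still hold called peaks.

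The deposited peak score is HOMER's value on a scale that the authors did not state, and the deposited focus ratio is a fraction between 0 and 1. The distance to the nearest start site was deposited in bp and not used. Since there is 1 value per peak for the whole series, no test of HuR against IgG could be made.

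Each peak was assigned to the gene of its RefSeq transcript, which was found for 13835 of 14149 peaks. Positions used canonical GENCODE 44 transcripts on hg38, with 1-based coordinates. Motifs were counted on the strand of the gene, and sequences were read from hg38. No pseudocount was used, and log2 differences were taken between the deposited scores. Intervals are Wilson, exact Poisson and order-statistic 95% intervals. They cover counting error only, since reads without molecular identifiers are not independent molecules, and library depth is unknown. Alternatives were the gene column, a minimum score at the list median (34.0), merged loci, other placements and other motifs.

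The families, gene lists and markers were chosen with earlier results of these data known. Genes named are the 10 members with the highest peak, the 3 highest of each family, the 5 with most peaks, and 43 genes set down by name. Some of these genes, and some sequences, are not reported here. Others are said to be chosen after their values were seen, or come from the pathway and marker lists. The functions were tested on simulated data. Tools were pandas 2.3.3, numpy 2.4.6, pysam 0.24.0, scipy 1.17.1 and matplotlib 3.10.9 under Python 3.11.15.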

Additional observations from a re-analysis of the deposited data

How the results depend on the processing

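No paired analysis was possible because each peak has a single score for the whole series, without a value per sample. Neither a replicate block nor leaving out a replicate could therefore be run. Over 27 alternatives to 7 results, 18 stayed within the 95% interval of the reported value (for counts, within 1.5 times of it). Only the difference within genes could change direction, since the other results are counts, shares or positive scores, and it did not. The interval of that difference was wide. With peaks at or above the list median score only, 26 genes and 138 peaks remained of 58 and 253. With the highest peak of each gene only, the 3′-UTR share was 24.1% and the intron share 44.8%. At 173 bp back in canonical transcripts, the intron share was 18.6%. The median per gene was 65.7 with summed scores in place of the best peak. The share of 3′-UTR peaks with a motif was 8.51% for TATTTAT, 78.7% for a run of 5 T, and 48.9% for ATTTA after the move by 173 bp. Within genes, the median difference between 3′-UTR and coding exons moved from 0.20 to 0.69 at 173 bp back and to 0.03 with the highest peak of each region, where 7 of 14 genes were higher in the 3′-UTR. Without UBE2N, an alternative chosen after seeing the data, the median best score stayed at 32.3. Depth, the IgG level and expression limit every value, since none can be read from the list.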
